A study of Rattus norvegicus with 18 samples.

Results

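The genes described here encode the T cell co-receptors CD4 and CD8 and parts of the T cell receptor machinery, and they were taken by symbol from the gene tables of a rat subarachnoid hemorrhage (SAH) study. They are 8 of the 30735 genes measured: Cd4, Cd8a, Cd8b, Cd3e, Cd3d, Cd3g, Lck and Cd2. RNA of the cerebral cortex was sequenced from 18 adult Sprague Dawley rats, with 6 rats and so 6 libraries to a group (sham, SAH 1d, SAH 7d). SAH was induced by perforating an intracranial artery from inside with a filament, and the cortex was collected 1 or 7 days later. In sham rats the artery was left intact during an otherwise equal operation. The rats carried no labelled mutation or drug treatment, and their sex is not stated. The study's text describes the whole cortex of the operated side after rinsing with saline, while the sample descriptions name the cortex of both sides and mice, and the genes carry rat identifiers. The question asked of these genes was whether Cd4 and Cd8a follow other T cell genes or genes of myeloid cells. The genes were chosen by symbol with results of these libraries in view, and since which results is not recorded, their levels and differences between the 3 groups count as used in the choice. Their levels, fold changes and places beside the limits used for other genes are given as a description, with no p and with nothing drawn from them, and p-values are kept to genes outside the 8 and to relations of Cd4 and Cd8a with other genes within a group. The p-values of these relations use the same levels, so they are no independent support. The lists of other genes were also chosen with earlier results of these data known, and the same limit holds for their p-values.

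CD4 and CD8 are surface proteins that bind MHC class II and MHC class I molecules, respectively, while the T cell receptor reads the peptide held by the same molecule. The receptor passes its signal through the CD3 chains gamma, delta and epsilon, and the kinase LCK, which sits on the tails of CD4 and CD8, phosphorylates them. CD2 is an adhesion receptor of T and NK cells whose ligand in rodents is CD48. In the rat, CD4 is also carried by monocytes, macrophages and microglia, and CD8 alpha chains occur on NK cells and on some macrophages, so neither gene alone marks a T cell. In bulk tissue, more or fewer cells of a type and more or less RNA per cell cannot be told apart.

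Total counts per library, in units of 1e6, were between 27.6 and 33.3 in sham, 27.3 and 38.3 in SAH 1d and 28.9 and 33.1 in SAH 7d. Levels are given as CPM, the counts of a gene per 1e6 counts of the library after TMM scaling, or as the deposited FPKM, which also divides by transcript length, where different genes are compared. Of the 8 genes, 4 passed the filter on low counts (Cd4, Cd8a, Cd3e and Lck), as did 18444 genes in all. The cortex was recognisable in every library by its neuron markers, whose summed level was lowest in SAH 7d-5. A pair of libraries stood apart from their groups. In SAH 7d-5 the macrophage marker genes summed to 8910 CPM against 105 to 303 CPM in the other 5 SAH 7d libraries, while the 4 neuron markers summed to 1903 CPM against 5456 to 7240 CPM. In SAH 1d-3 the monocyte gene Cd14 reached 132 CPM and the neutrophil gene S100a9 reached 30.5 CPM, both the highest values of the series. Results that rest on these libraries are given with and without them where the values differ by much.

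Cd4 (ENSRNOG00000016294) was detected in all 18 libraries. In the sham group its level was lowest at 5.18 CPM, had a median of 7.17 CPM and was highest at 9.89 CPM. In the SAH 1d group the lowest value was 5.02 CPM, the median 5.85 CPM and the highest 7.35 CPM. In the SAH 7d group the values were 8.92, 33.3, 13.3, 7.91, 71.4 and 35.4 CPM for rats 1 to 6. The SAH 1d libraries lay within the range of the sham libraries or just below it, and the SAH 7d libraries were the most spread, with rats 2, 3, 5 and 6 above every sham and SAH 1d library. The group means were 7.35 ± 2.01 CPM in sham, 5.90 ± 0.819 CPM in SAH 1d and 28.3 ± 24.3 CPM in SAH 7d (SD, n = 6 each), and the SAH 7d mean was 19.7 ± 13.5 CPM without SAH 7d-5 (SD, n = 5).

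Fitted with edgeR, the log2 fold change of Cd4 was -0.32 (SE 0.18) for SAH 1d versus sham, 2.26 (SE 0.49) for SAH 7d versus SAH 1d and 1.95 (SE 0.50) for SAH 7d versus sham. The SAH 7d and SAH 1d libraries did not overlap, since the lowest SAH 7d value (7.91 CPM) was above the highest SAH 1d value (7.35 CPM). The SAH 7d and sham libraries overlapped, with rats 1 and 4 of the SAH 7d group inside the sham range. Without SAH 7d-5 the log2 fold change for SAH 7d versus SAH 1d was 1.74.

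Cd8a (ENSRNOG00000007178), the alpha chain of CD8, had at most 50 counts in 17 libraries and was abundant in 1. The sham libraries held 0 to 8 counts, or 0 to 0.266 CPM, and 2 of them held none. The SAH 1d libraries held 7 to 30 counts, or 0.211 to 0.948 CPM, with a median of 0.484 CPM. In the SAH 7d group the values were 0.21, 1.52, 0.19, 0.07, 243 and 0.10 CPM for rats 1 to 6. SAH 7d-5 alone held 8046 of the 8113 Cd8a counts of its group, and the other 5 libraries of the group held 67 counts together.

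The fitted log2 fold change of Cd8a was 2.08 (SE 0.66) for SAH 1d versus sham. Its value was 6.25 (SE 2.02) for SAH 7d versus SAH 1d and 8.33 (SE 2.37) for SAH 7d versus sham. Both of the latter depended on SAH 7d-5, without which the log2 fold changes were -0.33 and 1.75. The groups overlapped in all 3 comparisons. SAH 1d-1 (0.211 CPM) lay below sham-1 and sham-2 (0.266 and 0.242 CPM), and the SAH 7d libraries other than rats 2 and 5 lay at or below 0.21 CPM.

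Cd8b, the beta chain of CD8, lies next to Cd8a in the rat genome and had the same single high library. SAH 7d-5 held 2012 counts (60.9 CPM), and no other library held more than 17 counts (0.516 CPM, in SAH 7d-2). It was listed at 0 counts in 5 of 6 sham and 3 of 6 SAH 7d libraries and at 2 to 10 counts in the SAH 1d libraries. Compared per transcript length, the Cd8a to Cd8b ratio of FPKM was 4.23 in SAH 7d-5, inside the range of 0.946 to 5.07 of the 9 other libraries in which both were detected.

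**Figure D1:**
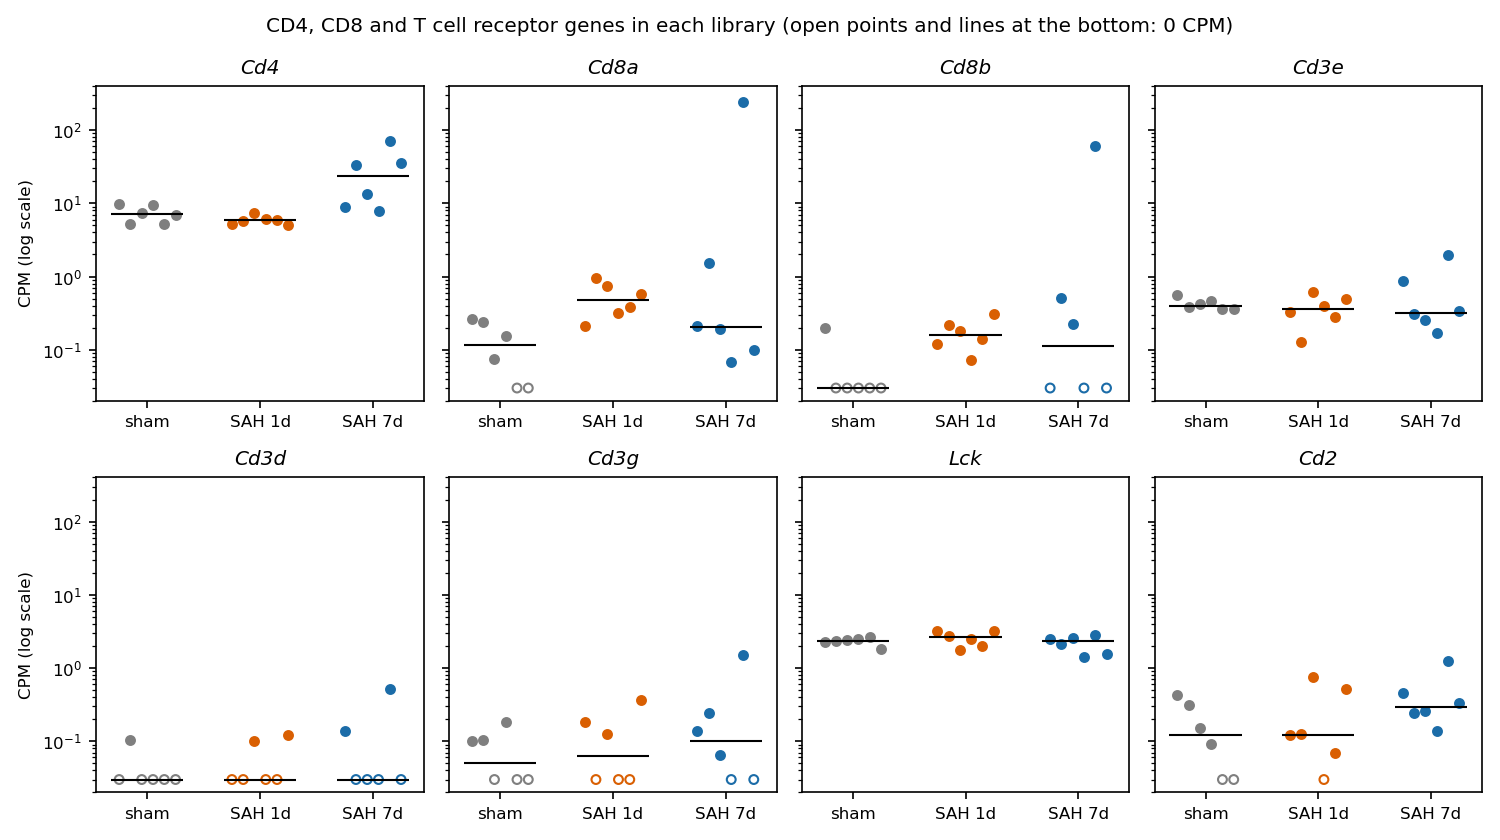
Level of each of the 8 genes in each library, as CPM on a log scale, with 1 point per rat and a line at the group median. Open points are libraries with 0 CPM. Cd4 is higher in several SAH 7d libraries, Cd8a and Cd8b are far above all other libraries only in SAH 7d-5 (243 and 60.9 CPM), and Lck stays between 1.40 and 3.20 CPM.

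The CD3 chains, which every T cell with a receptor carries, were scarce throughout. Cd3e had 0.363 to 0.566 CPM in the sham libraries, 0.126 to 0.609 CPM in the SAH 1d libraries and 0.171 to 1.997 CPM in the SAH 7d libraries. The highest value, 1.997 CPM or 66 counts, was that of SAH 7d-5, followed by 0.871 CPM in SAH 7d-1. The means were 0.426 ± 0.0788 CPM in sham, 0.372 ± 0.168 CPM in SAH 1d and 0.656 ± 0.702 CPM in SAH 7d (SD, n = 6 each), and all 3 groups overlapped. The log2 fold change of Cd3e was -0.18 (SE 0.34) for SAH 1d versus sham, 0.81 (SE 0.60) for SAH 7d versus SAH 1d and 0.62 (SE 0.55) for SAH 7d versus sham.

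Cd3d and Cd3g lie beside Cd3e in the genome and were below the filter on low counts. Cd3d had 17 counts in SAH 7d-5, at most 4 counts in any other library, and none in 5 sham, 4 SAH 1d and 4 SAH 7d libraries. Cd3g had 50 counts in SAH 7d-5, at most 12 counts elsewhere, and none in 3 sham, 3 SAH 1d and 2 SAH 7d libraries. No fold change is given for either gene at this depth. Both were highest in the library in which Cd3e was highest.

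Lck, the kinase that binds the tails of CD4 and CD8, differed little between libraries. Its level was 1.82 to 2.68 CPM in sham, 1.78 to 3.20 CPM in SAH 1d and 1.40 to 2.78 CPM in SAH 7d, and all groups overlapped. Its log2 fold change was 0.14 (SE 0.18), -0.25 (SE 0.23) and -0.11 (SE 0.20) for SAH 1d versus sham, SAH 7d versus SAH 1d and SAH 7d versus sham. In SAH 7d-5, where Cd8a was 160.4-fold above the highest other library, Lck was at 2.78 CPM and below its highest value in SAH 1d-1 (3.20 CPM).

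Cd2 had 0 to 13 counts in the sham libraries, 0 to 30 counts in the SAH 1d libraries and 4 to 41 counts in the SAH 7d libraries, and it was below the filter. Its highest values were 1.24 CPM in SAH 7d-5 and 0.761 CPM in SAH 1d-3, the libraries that stood apart. Cd48, whose product is the ligand of CD2, was tested among the other genes and is described with them below.

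As a description, 1 of the 4 genes that passed the filter (Cd8a) was past the limits for a call in SAH 1d versus sham, where a call needs an adjusted p under 0.05 and a log2 difference of 1.0 or more. Over all tested genes, 5.54% were called higher there, 1.07% lower and 6.61% in either direction, and the groups did not overlap for 7.89% (higher) and 5.41% (lower), with none of the 4 genes among these. In SAH 7d versus SAH 1d, 1 of the 4 (Cd4) was past them, where 0.152% of all tested genes were called higher, 0.542% lower and 0.694% in either direction. The SAH 7d libraries lay wholly above the SAH 1d libraries for 0.938% of tested genes, Cd4 among them, and wholly below for 2.11%. In SAH 7d versus sham the edgeR test called 0 of 18444 genes, while 2822 genes had an unadjusted p under 0.05 and the DESeq2 Wald test called 370. The SAH 7d libraries lay wholly above the sham libraries for 0.797% of tested genes and wholly below for 0.428%, with none of the 4 genes among them. Since the genes were named with these comparisons known, the counts are no test of them. Cd8a, with at most 8 counts in a sham library, passed the filter through its levels in the SAH groups.

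The sequence before the start of transcription is shown for Cd8a, which had the largest step of the 18444 tested genes in SAH 7d-5, and for Cd3e, the CD3 chain with the most counts. Both are the 250 bases upstream of the RefSeq start in the GRCr8 build, at chr4:104923866-104924115 on the plus strand for Cd8a and chr8:54211771-54212020 on the minus strand for Cd3e, printed 5′ to 3′. Capitals mark matches to GAGGAA, a core of sites of the myeloid factor PU.1, to TGTGGT, a core of RUNX sites, or to TATAAA, the TATA box, on either strand.
Cd8a: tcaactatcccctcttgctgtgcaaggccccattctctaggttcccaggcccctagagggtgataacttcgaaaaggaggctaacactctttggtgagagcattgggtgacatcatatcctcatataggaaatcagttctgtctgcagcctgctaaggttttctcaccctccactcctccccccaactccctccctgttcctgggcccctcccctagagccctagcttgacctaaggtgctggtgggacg
Cd3e: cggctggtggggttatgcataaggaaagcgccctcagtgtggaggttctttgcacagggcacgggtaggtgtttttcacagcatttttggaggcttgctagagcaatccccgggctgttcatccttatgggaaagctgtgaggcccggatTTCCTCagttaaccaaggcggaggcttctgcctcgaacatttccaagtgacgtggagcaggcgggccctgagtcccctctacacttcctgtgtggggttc
The Cd8a stretch held none of the 3 motifs, and the Cd3e stretch held 1 match to GAGGAA, on the opposite strand and 100 bases before the start, which overlaps no other match. Among 33469 stretches of the same length in the table, GAGGAA was found in 23.3%, TGTGGT in 14.5% and TATAAA in 12.9%. Of the other genes, Cd2 held 1 match to GAGGAA and 1 to TGTGGT, and 1 of the 2 Lck starts held 1 match to TGTGGT, while Cd3d and Cd3g held none. Cd4 and Cd8b have no entry in that table.

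Per transcript length, Cd4 RNA was above Cd3e RNA in every library. The Cd4 to Cd3e ratio of FPKM was 9.96 to 15.7 in sham with a median of 11.2, and 7.68 to 33.1 in SAH 1d with a median of 12.1. In the SAH 7d group it was 7.11, 88.2, 39.7, 40.2, 25.8 and 86.0 for rats 1 to 6. The ratio was above every sham library in 5 of 6 SAH 7d rats, and it was lowest in SAH 7d-1, the rat whose Cd3e level was the next highest after SAH 7d-5. Cd3e held only 5 to 25 counts in the SAH 7d libraries other than SAH 7d-5, so these ratios are coarse. The 40.2 of SAH 7d-4 rests on 5 Cd3e counts, with Cd4 inside the sham range, and the 33.1 of SAH 1d-2 rests on 4. The Cd4 to Csf1r ratio, which sets Cd4 against the receptor that microglia and macrophages need, ran from 0.0576 to 0.206 over all 18 libraries. It was 0.109 in SAH 7d-5 and had medians of 0.118 in sham, 0.0681 in SAH 1d and 0.130 in SAH 7d.

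The Cd8a to Cd3e ratio of FPKM had a median of 0.200 in sham, 1.09 in SAH 1d and 0.581 in SAH 7d. It was 111 in SAH 7d-5, where the other 17 libraries had at most 6.86. That highest other value, of SAH 1d-2, rests on 4 Cd3e counts. The Cd8b to Cd3e ratio was 26.2 in SAH 7d-5 against at most 1.62 in the others. The Lck to Cd3e ratio was 0.842 in SAH 7d-5, below the 1.68 to 13.4 of the other 17 libraries. SAH 7d-5 thus had the highest CD8 to CD3 epsilon ratios and the lowest Lck to CD3 epsilon ratio of the series.

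**Figure D2:**
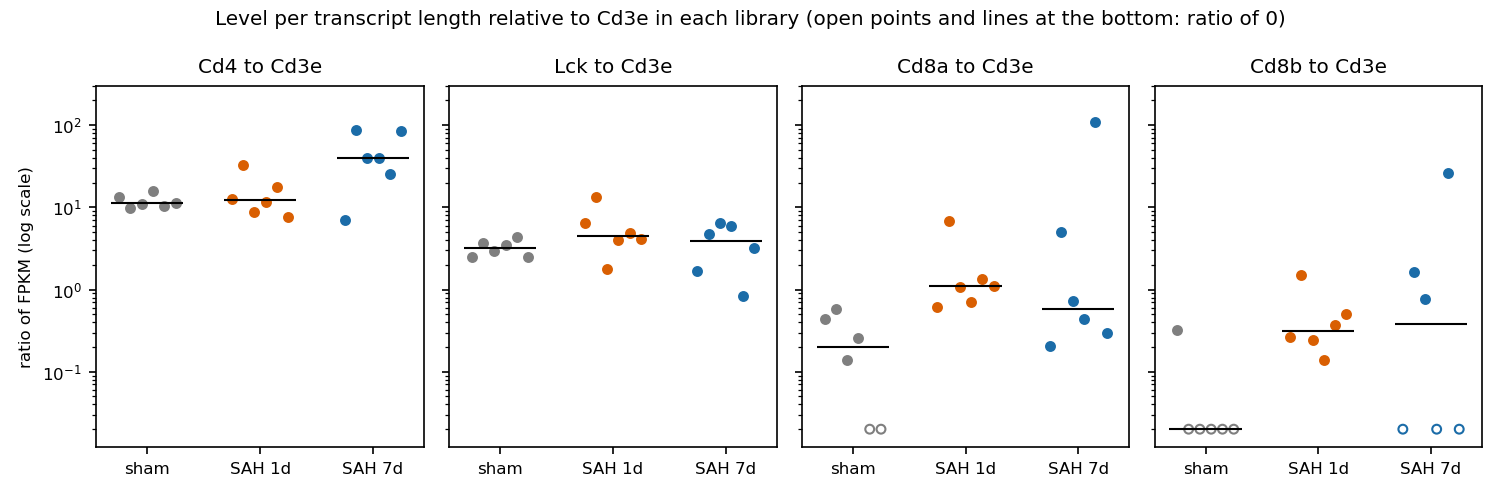
Ratio of FPKM of Cd4, Lck, Cd8a and Cd8b to Cd3e in each library on a log scale, with 1 point per rat and a line at the group median. Open points are ratios of 0. Cd3e held 4 to 66 counts per library, so the ratios are coarse. The Cd8a ratio of SAH 7d-5 is 111 and the highest of the other 17 libraries is 6.86, whereas the Lck ratio of SAH 7d-5 is the lowest, at 0.842.

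SAH 7d-5 was compared with the highest of the other 17 libraries, gene by gene. Cd8a was 160.4-fold higher and Cd8b 118-fold higher, and no other tested gene reached the step of Cd8a among 18444. Cd4 was 2.02-fold, Cd3e 2.29-fold, Cd3d 3.69-fold, Cd3g 4.10-fold and Cd2 1.63-fold higher than in the next library, and Lck was 0.870 times its highest other value. SAH 7d-5 was the highest library for 4630 of the 18444 tested genes, or 25.1%.

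The other T cell genes were mixed in SAH 7d-5. Of the 5 tested genes of T cell receptor signalling, 3 were highest there, and the largest step was 6.03-fold for Lcp2, an adaptor of T cells that myeloid cells also use. Zap70, the kinase that binds phosphorylated CD3 chains, was at 1.66 CPM in SAH 7d-5 against 3.11 CPM in SAH 1d-4. Of the 4 tested T cell surface genes, 3 were highest in SAH 7d-5, led by the co-stimulator Icos at 6.30-fold. Cd247, the zeta chain of the receptor complex, reached 0.908 CPM, which was 1.73-fold its highest other library. Themis, a thymocyte and T cell gene, was at 0, as in every SAH 1d library, and had at most 0.114 CPM elsewhere. The scarce T cell genes Cd7, Sit1 and Cd5 were 3.21-fold, 2.50-fold and 1.99-fold their highest other libraries. Trat1, Ubash3a and Cd28 were 0.716, 0.478 and 0.358 times theirs.

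Cytotoxic lymphocyte and NK cell genes summed to 7.35 CPM in SAH 7d-5, above the 0.685 to 1.71 CPM of the other SAH 7d libraries and below the 11.9 CPM of SAH 1d-3. Klrk1, the activating receptor NKG2D, was at 2.75 CPM and Eomes, a transcription factor of cytotoxic lymphocytes, at 1.94 CPM, and Eomes was the only 1 of the 3 tested genes of this list that was highest in SAH 7d-5. The effector genes Gzma, Gzmb, Nkg7 and Prf1 were at 0, 0.151, 0.212 and 0.424 CPM there, and the highest library for all 4 was SAH 1d-3. Within the SAH 7d group, Prf1 was highest in SAH 7d-5, with at most 0.333 CPM in the others. The effector gene Gzmk was too, at 0.303 CPM against at most 0.139 CPM. Gzma, Gzmb and Nkg7 were not, with up to 0.104, 0.244 and 0.342 CPM in the others. Of the B cell genes, Cd79b was at 1.03 CPM and Blk at 0.908 CPM in SAH 7d-5, which were 2.25-fold and 3.03-fold their highest other libraries, and Pax5 was at 0. Cd247, Themis, Cd7, Sit1, Cd5, Trat1, Ubash3a and Cd28 were below the filter. So were Gzma, Gzmb, Gzmk, Nkg7, Prf1, Cd79b, Blk and Pax5. All of these were named after their values were seen.

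Myeloid genes were higher in SAH 7d-5 as a group. All 10 tested genes shared by myeloid cells were highest there, with a median step of 4.74-fold over the highest other library, as were 8 of 9 microglia markers (median step 2.28-fold) and 7 of 9 macrophage markers (median step 2.94-fold). Lyz2, the macrophage lysozyme, stood at 8006 CPM and Cd68, a lysosomal protein of phagocytes, at 558 CPM, which were 17.2-fold and 16.5-fold above the next library. None of the 4 neuron markers was highest in SAH 7d-5, and Snap25 was at 750 CPM there. The part of these markers in the CD8 levels of SAH 7d-5 was not tested.

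**Figure D3:**
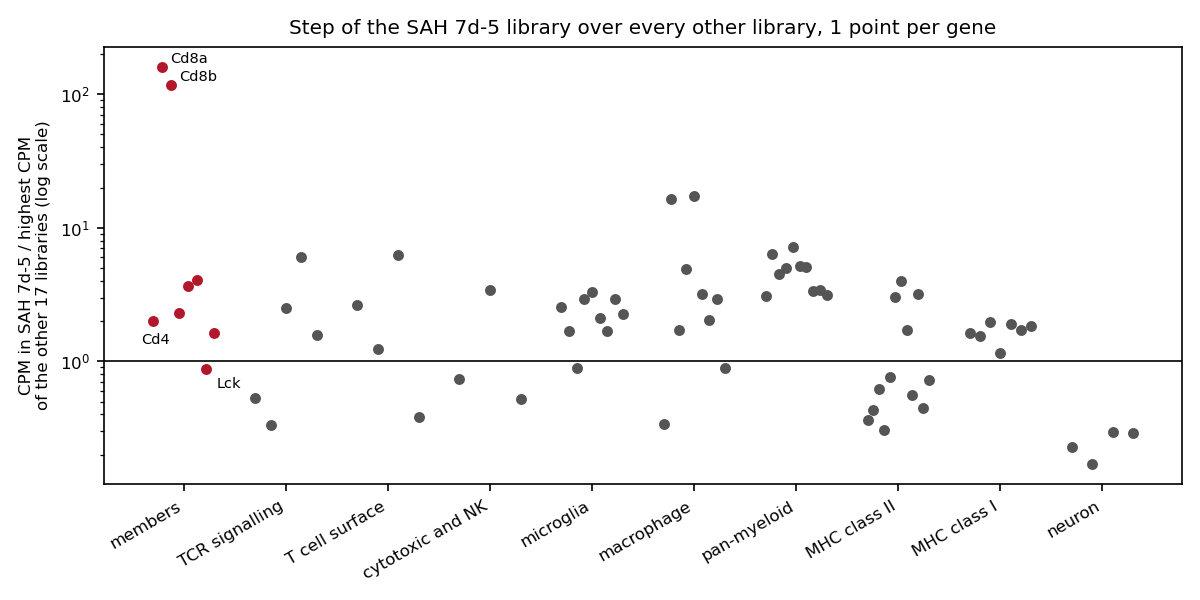
CPM in SAH 7d-5 divided by the highest CPM of the other 17 libraries, on a log scale, with 1 point per gene for the 8 genes (red) and for the tested genes of 9 lists. The line at 1 marks an equal level. Cd8a (160.4-fold) and Cd8b (118-fold) are far above every list gene, among which Lyz2 (17.2-fold) is the highest.

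To ask whether Cd4 and Cd8a follow T cell or myeloid genes, a T cell score was formed as the mean log2 CPM of 9 tested T cell genes, among them Zap70, Lat, Lcp2, Cd6 and Icos. A myeloid score was formed in the same way from 28 tested microglia, macrophage and shared myeloid genes, and neither score holds any of the 8 genes. Of the T cell genes, Lat, Skap1, Ctla4, Icos and Ccr7 were near the floor, with sham medians of 0.116 to 0.468 CPM. Sham medians of the myeloid genes ran from 0.318 CPM (Ms4a7) to 145 CPM (Ctss). A missing relation with the T cell score is therefore not directly comparable with one with the myeloid score. In the sham and SAH 1d groups the scores showed little relation to each other, with r of 0.0332 and -0.0898 over 6 libraries. In the SAH 7d group they were closely related, with r = 0.997 over 6 libraries and 0.985 over the 5 without SAH 7d-5. The T cell and myeloid scores therefore cannot be told apart within the SAH 7d group.

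Within the SAH 7d group, Cd4 was related to both scores. Its Pearson r was 0.925 with the T cell score (exact permutation p = 0.00278, adjusted over 12 relations 0.0333, n = 6) and 0.901 with the myeloid score (exact permutation p = 0.00556, adjusted 0.0333, n = 6). Spearman's rho was 0.943 and 0.886, with exact permutation p of 0.0167 and 0.0333, each 0.200 after adjustment. The scores had r = 0.997 in this group, so these are in effect 1 relation and cannot say which genes Cd4 follows. The Cd4 levels count as used in choosing the genes, so the p-values are no independent support. Without the 2 libraries farthest from the median score, SAH 7d-4 and SAH 7d-5, r was 0.949 and 0.846. A p of 0.00278 is the smallest that the 720 orders of 6 libraries can give in a two-sided test. With 1 of the 6 libraries left out, r ran from 0.899 to 0.967 with the T cell score and from 0.870 to 0.965 with the myeloid score. The lowest adjusted p that 5 libraries reached was 0.05, so their p-values say nothing about stability.

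Cd8a was also related to both scores within the SAH 7d group, and there SAH 7d-5 set much of the relation. Its r was 0.945 with the T cell score (exact permutation p = 0.0139, adjusted 0.0417, n = 6) and 0.963 with the myeloid score (exact permutation p = 0.0125, adjusted 0.0417, n = 6). Spearman's rho was 0.771 (exact permutation p = 0.103, adjusted 0.206) and 0.829 (exact permutation p = 0.0583, adjusted 0.206). Like those of Cd4, these p-values use levels that count as used in choosing the genes, so they are no independent support. They also cannot separate the T cell score from the myeloid score. Without SAH 7d-5, r fell to 0.698 and 0.798, and without SAH 7d-4 as well it was 0.593 and 0.748, so the relations rest on those libraries. With 1 library left out, r ran from 0.698 to 0.991 and from 0.798 to 0.991.

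In the sham and SAH 1d groups, where the scores were not so related, none of the 8 relations passed the test. With the T cell score, Cd4 had r of -0.036 in sham and 0.159 in SAH 1d (exact permutation p = 0.953 and 0.779, n = 6 each), and Cd8a had 0.310 and -0.632 (exact permutation p = 0.547 and 0.182). With the myeloid score, Cd4 had r of 0.567 and 0.470 (exact permutation p = 0.235 and 0.351), and Cd8a had 0.734 and 0.774 (exact permutation p = 0.108 and 0.0708). The adjusted p of these 8 relations was between 0.170 and 0.953. Without the 2 libraries farthest from the median score, r of Cd4 with the myeloid score was -0.156 in sham and -0.0388 in SAH 1d, and r of Cd8a was 0.444 and 0.864. With the T cell score r was then 0.0203 and 0.588 for Cd4 and -0.272 and 0.265 for Cd8a, so several of these values changed sign. The difference between the scores in their relation to either gene was not tested. As a description, Cd3e had r of 0.82 with the myeloid score and 0.30 with the T cell score in sham. In SAH 1d these were 0.08 and 0.45. Cd2, below the filter, had 0.87 and 0.18 in sham and 0.81 and 0.13 in SAH 1d. Lck had -0.00 and 0.37 in sham and -0.34 and -0.26 in SAH 1d. A higher r with the myeloid score was thus not particular to Cd4 and Cd8a.

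**Figure D4:**
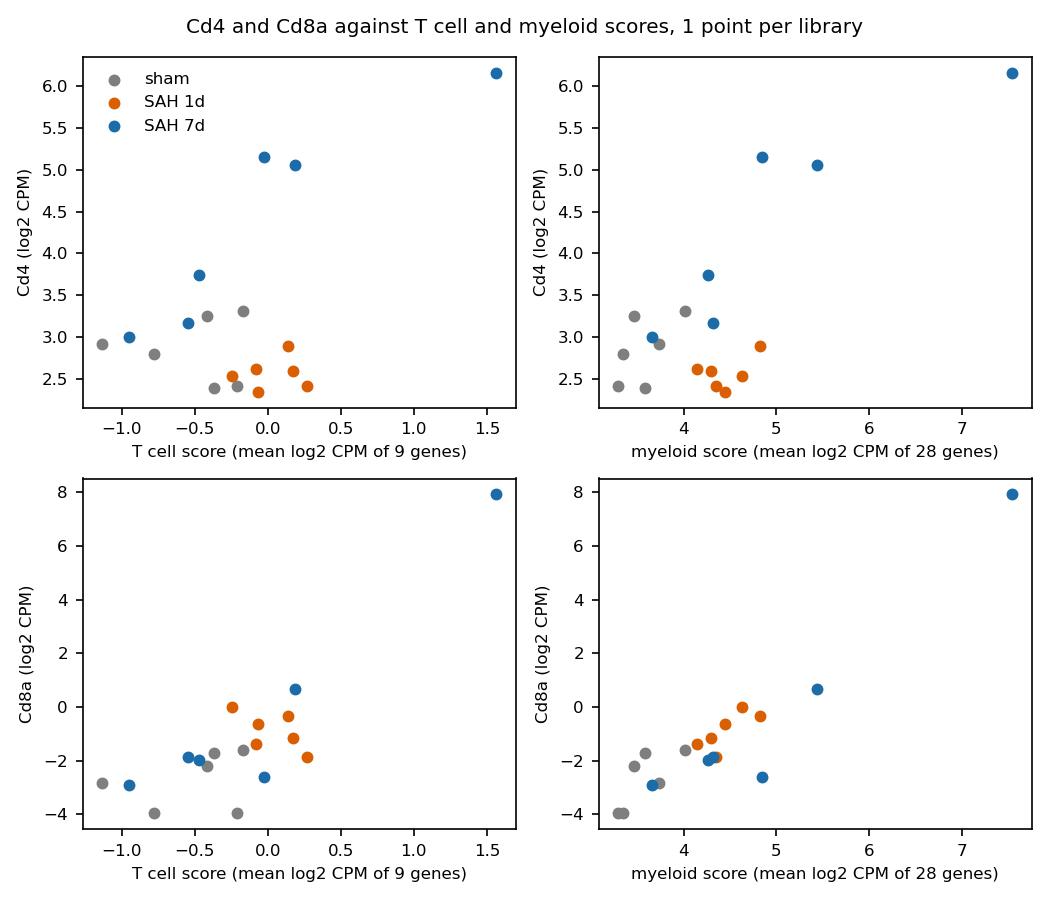
Log2 CPM of Cd4 (upper row) and Cd8a (lower row) against the T cell score (left) and the myeloid score (right), with 1 point per library coloured by group. The SAH 7d points rise along both scores, with SAH 7d-5 at the upper right of all 4 panels, and the sham and SAH 1d points show no relation that passed the test.

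Single genes were then compared over the 16 libraries other than SAH 1d-3 and SAH 7d-5, as deviations from the group mean in log2 CPM, which is a description over libraries that share groups and depth. Cd4 had a median r of 0.757 with the 28 myeloid genes, 26 of them above 0, and 0.341 with the 9 T cell genes, 8 of them above 0, where the median over all tested genes was 0.00518. Its r was -0.00934 with Cd3e, -0.133 with Lck and 0.422 with Cd8a. Cd8a had a median r of 0.579 with the myeloid genes and 0.200 with the T cell genes, and 0.0510 with Cd3e. Cd3e had medians of 0.112 with the myeloid genes and 0.116 with the T cell genes, where the median over all tested genes was 0.00347. Over all 18 libraries the medians with the myeloid and T cell genes were 0.829 and 0.561 for Cd4, 0.858 and 0.519 for Cd8a and 0.631 and 0.568 for Cd3e, and Cd3e had r of 0.492 with Cd4 and 0.681 with Cd8a. The contrast between Cd3e and the co-receptor genes thus depended on the choice of libraries. Cd4 varied most in the SAH 7d group, where its SD was 13.5 CPM without SAH 7d-5. It was 2.01 CPM in sham and 0.456 CPM in SAH 1d without SAH 1d-3. In SAH 7d without SAH 7d-5 the 2 scores had r = 0.985. The gap between the myeloid and T cell medians was not tested and does not show which genes Cd4 or Cd8a follows.

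The genes most like Cd4 in this measure were C3ar1 (r = 0.914), the receptor of the complement fragment C3a, then Clec12a (0.908), Fxyd5 (0.906), Tgfbr1 (0.904), Ppp2r5a (0.902), Elk3 (0.902), Fyb1 (0.900), Sowahc (0.898), Tgfb1 (0.897) and Eng (0.895). Clec12a is a lectin receptor of myeloid cells, and Tgfb1 and Tgfbr1 encode the cytokine TGF-beta 1 and one of its receptor chains. The genes most like Cd8a were Rpl11 (0.909), Lyz2 (0.889), Phyhd1 (0.888), Dcaf11 (0.865), Gcdh (0.863), Gnai2 (0.860), Triobp (0.859), Sumf2 (0.859), C1qc (0.852) and Rpsa (0.851). Among those of Cd3e were Htatsf1 (0.772) and Cxcl11 (0.751), a chemokine that attracts activated T cells. None of the other 7 genes was among the 10 most like Cd4, Cd8a or Cd3e.

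The other genes of the pathway were tested with edgeR as lists that hold none of the 8 genes. In SAH 1d versus sham, 1 of the 5 tested T cell receptor signalling genes was called higher, which was Lcp2, at 14.6 ± 3.78 CPM in SAH 1d and 6.50 ± 1.72 CPM in sham (SD, n = 6 each, log2 fold change 1.17, SE 0.20, adjusted p = 0.00164 in edgeR). Of the 4 tested T cell surface genes, Ccr7, a chemokine receptor of T and dendritic cells, was called higher, at a low level of 0.545 ± 0.346 CPM against 0.166 ± 0.0829 CPM (log2 fold change 1.72, SE 0.46, adjusted p = 0.0159 in edgeR). The median log2 fold change was 0.53 for the signalling list and 0.75 for the surface list, against 0.01 over all tested genes. Zap70 had a log2 fold change of 0.53 (SE 0.32).

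In the same comparison, most tested genes of the myeloid lists other than microglia markers were called. Of the 10 shared myeloid genes 7 rose (Itgam, Tyrobp, Fcer1g, Spi1, C1qa, C1qb and C1qc), with a median log2 fold change of 1.48 for the list, and of the 9 macrophage markers 5 rose (Cd14, Cd68, Cd163, Lyz2 and Msr1), with a median of 1.23. Itgam, the alpha chain of complement receptor 3, was at 62.4 ± 20.4 CPM in SAH 1d and 9.51 ± 1.86 CPM in sham (SD, n = 6 each, log2 fold change 2.71, SE 0.21, adjusted p = 9.6e-06 in edgeR). Spi1, which encodes PU.1, had a log2 fold change of 1.63 (SE 0.23, adjusted p = 0.000466 in edgeR). Of the 9 microglia markers none rose and P2ry12, a receptor of resting microglia, fell (log2 fold change -1.19, SE 0.35, adjusted p = 0.0254 in edgeR). Without SAH 1d-3 the macrophage list had 4 called genes, Lyz2 no longer among them, and the microglia list had none.

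In SAH 7d versus SAH 1d, where Cd4 had its largest difference, no T cell list gene, cytotoxic gene, macrophage marker or shared myeloid gene was called. The only microglia marker called was Tmem119, which rose from 16.3 ± 3.52 to 48.2 ± 20.5 CPM (SD, n = 6 each, log2 fold change 1.56, SE 0.26, adjusted p = 0.012 in edgeR). The median log2 fold changes were 0.26 for T cell receptor signalling, 0.69 for T cell surface genes, 1.39 for microglia markers, 0.52 for macrophage markers and 1.29 for shared myeloid genes, against 0.03 over all tested genes. Lcp2 had 1.30 (SE 0.67), Zap70 -0.36 (SE 0.33), and Csf1r 1.49 (SE 0.49). With SAH 1d-3 and SAH 7d-5 left out, P2ry12 and the pan-leukocyte gene Cd53 were called higher as well, Cd14 and Msr1 were called lower, and the medians were -0.41 for T cell receptor signalling, 0.17 for T cell surface genes, 0.70 for microglia markers, -0.01 for macrophage markers and 0.03 for shared myeloid genes.

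Genes of the MHC molecules that CD4 and CD8 bind were called in different comparisons. Of the 12 tested MHC class II and dendritic cell genes, 5 rose in SAH 7d versus SAH 1d, which were Cd74, RT1-Da, RT1-Db1, RT1-Ba and RT1-Bb, with log2 fold changes from 2.71 (RT1-Bb, SE 0.40) to 3.60 (RT1-Ba, SE 0.59) and adjusted p between 0.00641 and 0.0181 in edgeR. In SAH 1d versus sham, RT1-DMa, RT1-DMb and the dendritic cell integrin Itgax were called higher. Of the 7 MHC class I genes for the light chain and peptide loading, 5 rose in SAH 1d versus sham (Tap1, Tap2, Tapbp, Psmb8 and Psmb9), and none was called in SAH 7d versus SAH 1d, where the median of the list was -0.09, or -0.68 when both libraries that stood apart were left out. The level of Cd74 was highest in SAH 7d-2, at 358 CPM, and was 130 CPM in SAH 7d-5, whereas Cd4 was highest in SAH 7d-5. The list was mixed there, since 4 of its 12 tested genes were highest in SAH 7d-5, led by RT1-DMb at 3.98-fold.

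Among the 8 regulators and partners of LCK and CD2, 2 rose in SAH 1d versus sham. They were Ptprc, which encodes the phosphatase CD45 that activates LCK (log2 fold change 1.86, SE 0.44, adjusted p = 0.00893 in edgeR), and Ptpn6, which encodes SHP-1 (log2 fold change 1.43, SE 0.17, adjusted p = 0.000167 in edgeR). Both are expressed in all leukocytes. Cd48, the ligand of CD2, had a log2 fold change of 0.77 (SE 0.25) in SAH 1d versus sham and 0.77 (SE 0.43) in SAH 7d versus SAH 1d, and was not called. All 8 were highest in SAH 7d-5, where Lck was not.

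**Figure D5:**
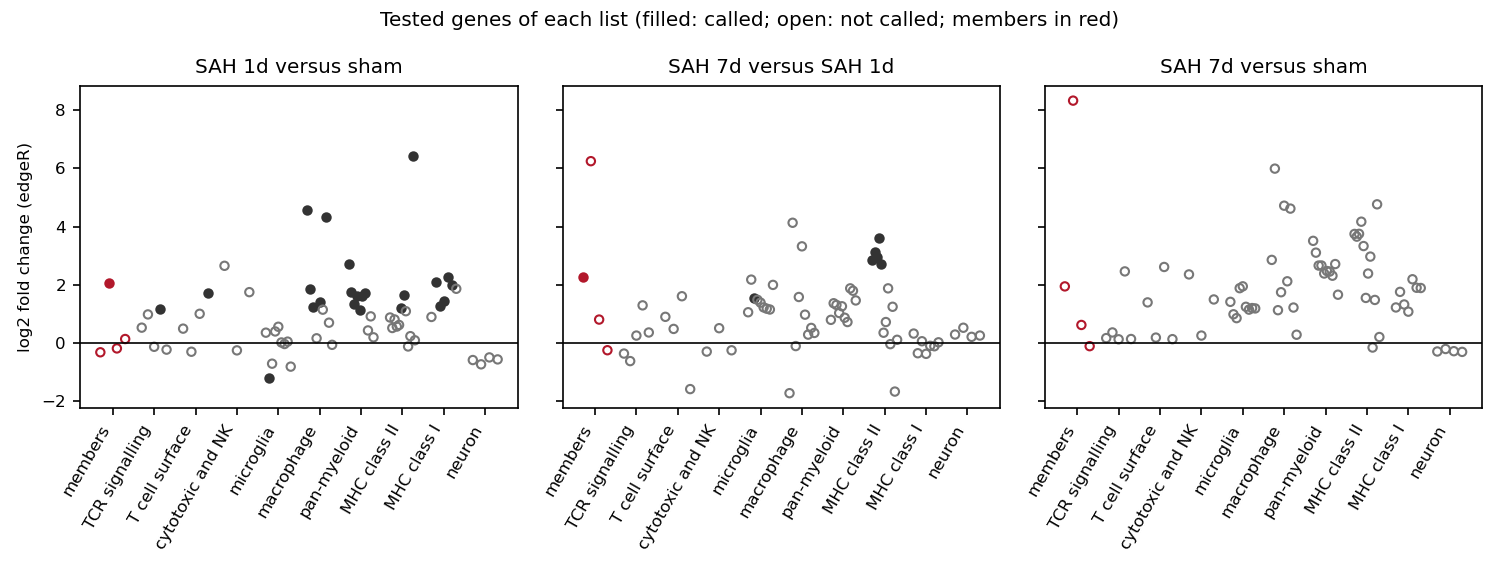
Log2 fold change (edgeR) of each tested gene in the 3 comparisons, with the 4 tested genes of the group in red and the genes of 9 lists in grey and black, and filled points for called genes. Myeloid and MHC class I genes hold most filled points in SAH 1d versus sham, MHC class II genes in SAH 7d versus SAH 1d, and SAH 7d versus sham has none.

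The remaining lists give the other cell types that the tissue could hold. No T cell subset regulator, such as Foxp3, and none of the 5 B cell markers measured passed the filter, and in SAH 7d-5 these lists summed to 2.69 and 2.15 CPM against at most 1.21 and 0.989 CPM elsewhere. Of the 11 cytotoxic and NK cell genes 3 were tested and none was called in any comparison. Their summed level was 0.529 to 1.11 CPM in sham, and it was highest in SAH 1d-3, at 11.9 CPM. Of the 3 tested neutrophil genes, S100a9 and Csf3r rose in SAH 1d versus sham, and S100a9 lost its call without SAH 1d-3. Of 4 astrocyte markers Gfap rose in SAH 1d versus sham (2903 ± 536 against 363 ± 92.8 CPM, SD, n = 6 each, adjusted p = 1.36e-06 in edgeR), and no neuron, oligodendrocyte or endothelial marker was called in any comparison. The neuron markers had a median log2 fold change of -0.57 in SAH 1d versus sham. Snap25 (-0.73), Syt1 (-0.49) and Slc17a7 (-0.56) had adjusted p of 0.00214, 0.0213 and 0.0329 in edgeR there. They missed a call only by the limit on fold change. In SAH 7d versus sham edgeR called no gene of any list, whereas the DESeq2 Wald test called 8 of 10 shared myeloid genes, 9 of 12 MHC class II and dendritic cell genes, 5 of 9 microglia markers, 3 of 7 MHC class I genes, 3 of 8 regulators of LCK and CD2, Lcp2, Csf3r and Gfap, all higher. In edgeR the median log2 fold change was 2.57 for shared myeloid genes, 2.12 for macrophage markers, 1.20 for microglia markers, 0.79 for T cell surface genes and 0.17 for T cell receptor signalling genes, against -0.01 over all tested genes. Without SAH 7d-5 these medians were 1.28, 0.83, 0.76, 0.27 and 0.18.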

How the data were processed

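RNA of the cortex of 18 rats was sequenced, 6 each in sham, SAH 1d and SAH 7d. The authors deposited a count per gene and library and FPKM values, made by trimming the reads and aligning them to Rnor_6.0. The submitters' processing notes name fastp, HISAT2, DESeq2 1.16.1 and the build mm9 without their roles, and the counter is not given in the sources used here. The deposited FPKM values scale counts by transcript length and depth. Whether both reads of a fragment were counted is not given in the sources used here, so a count is not a molecule.

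Genes were filtered with filterByExpr and scaled by TMM over the 18 libraries in edgeR 4.0.16 (R 4.3.3). Each pair of groups (12 libraries) was fitted on counts with the quasi-likelihood F test, and calls required a p under 0.05 after Benjamini-Hochberg adjustment and an absolute log2 fold change of at least 1. Log2 CPM used a prior count of 2. The scores were related to Cd4 and Cd8a within groups by exact two-sided permutation tests, adjusted over 12 relations. Alternatives used DESeq2 1.42.0, limma 3.58.1 on log2(FPKM + 1), other filters, and libraries left out. The steps were tested on simulated data. Python 3.11.15 with pandas 2.3.3, numpy 2.4.6, scipy 1.17.1 and matplotlib 3.10.9 was used.

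The 8 genes and the 16 lists (T cell receptor signalling, T cell surface, T cell subset regulators, cytotoxic and NK cell, B cell, microglia, macrophage, shared myeloid, MHC class II and dendritic cell, MHC class I, neutrophil, regulators of LCK and CD2, neuron, astrocyte, oligodendrocyte and endothelial) were chosen with earlier results of these data known. Of 123 listed genes, 118 are in the files and 85 were tested. The rule for named genes gave the 8, each list's called genes or otherwise up to 3 of its genes with the highest mean CPM, and the 10 genes most like Cd4, Cd8a and Cd3e. Not all of those most like Cd3e are named. Zap70, Icos, Csf1r, Cd48 and Plbd1, among others, were named outside this rule, some of them after their values were seen. Nothing ties libraries of a group to more than their own rats, and p-values measure the spread between these libraries. Some listed genes are not reported here by name.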

Additional observations from a re-analysis of the deposited data

Results flagged for a closer look

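Of 30 groups of 6 libraries examined for a library far from the others, 4 held one, where chance gives about 1 in 20. The measure is the gap to the nearest library divided by the group's range in log2 CPM, with a critical value of 0.625. In the SAH 7d group SAH 7d-5 was far above the others for Cd8a (0.67) and for Cd8b (0.68). In the sham group the gap was 1 for Cd8b in sham-1 (6 counts) and 1 for Cd3d in sham-2 (3 counts), since the other 5 libraries were at 0 counts. These levels count as used in choosing the genes, so they are a description and the rate of 1 in 20 is no yardstick for them.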

How the results depend on the processing

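As a description, the 1 gene of the 8 past the limits for a call in SAH 1d versus sham (Cd8a) became 0 with no filter on low counts, with all 18 libraries in 1 fit, and in limma on log2(FPKM + 1) with or without a filter. With at least 10 counts required in every library it was also 0, since Cd8a was then removed and not tested. Leaving out 1 library gave 0 to 1, and the call was lost without sham-3, 4, 5 or 6, SAH 1d-2 or SAH 1d-6. The 1 past them in SAH 7d versus SAH 1d (Cd4) became 2 (Cd4 and Cd8a) with all 18 libraries in 1 fit and 0 in limma on log2(FPKM + 1) with or without a filter and on log2(FPKM + 0.1). Leaving out 1 library gave 0 to 1, and the call was lost without any SAH 1d library, SAH 7d-2, SAH 7d-3 or SAH 7d-6. In SAH 7d versus sham DESeq2 called 1 (Cd4) instead of 0. The log2 fold change of Cd8a in SAH 7d versus SAH 1d reversed to -0.33 without SAH 7d-5 (range -0.33 to 6.51 with 1 library left out) and to -0.21 without SAH 7d-5 and SAH 1d-3, and the cause of the other changes was not tested. Over all genes, DESeq2 called 388 in SAH 7d versus SAH 1d against 128, and 370 in SAH 7d versus sham against 0.

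With 1 library left out, r of Cd4 with the T cell score ran from -0.407 to 0.228 in sham, -0.134 to 0.523 in SAH 1d and 0.899 to 0.967 in SAH 7d, and with the myeloid score from -0.424 to 0.707 in SAH 1d and 0.87 to 0.965 in SAH 7d. For Cd8a in SAH 7d the ranges were 0.698 to 0.991 and 0.798 to 0.991. On log2(FPKM + 1), r of Cd4 with the T cell score in SAH 1d was -0.171, and for Cd8a in SAH 7d r was 0.961 with the T cell score (permutation p adjusted 0.0542) and 0.942 with the myeloid score (adjusted 0.05), no longer past the threshold. Leaving Lcp2 out of the T cell score was chosen after seeing the data and changed no call.

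Replicate numbers did not pair the libraries, since same-numbered libraries had r of deviations from -0.25 to 0.20 and 0, 2 and 3 of 12 libraries per comparison were most like the library of their own number. With the replicate block 0 of the 8 genes were called in every comparison, and calls over all genes moved from 1219 to 1057, from 128 to 24 and from 0 to 0. At these depths Cd8b, Cd3d, Cd3g and Cd2 had too few counts for a test.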

Other observations

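After Cd8a, the tested genes with the largest steps of SAH 7d-5 over the highest other library, among those of at least 10 CPM there, were Plbd1 (49.9-fold), Spp1 (38.5-fold), Folr2 (32.3-fold), Serpinb8 (29.5-fold) and Siglec1 (27.1-fold). Spp1, which encodes osteopontin, was at 10589 CPM and Gpnmb, a glycoprotein of lipid-laden macrophages, at 4546 CPM in that library. Siglec1 and Folr2 are genes of tissue macrophages. Collagen gene Col3a1 was at 1788 CPM, a 15.2-fold step. These genes were chosen after their values were seen.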
